A study of Mus musculus with 8 samples.

Results

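Mx1, Mx2, Ifitm1, Ifitm2, Ifitm3, Ifitm6, Bst2, Ly6e, Rtp4 and Tor3a, a set of genes for Mx GTPases, interferon-induced transmembrane (IFITM) proteins and other antiviral proteins that act at or on membranes, were followed in tumors of mice given PFSUV-IMQ. The set was named by gene symbol and matched to the counted genes by Ensembl identifier, and all 10 members were found among 55536 counted genes. PFSUV-IMQ is imiquimod (IMQ), a small-molecule agonist of the RNA sensor TLR7, carried in phospholipid-free small unilamellar vesicles. The tumors were HCA-1, a mouse hepatocellular carcinoma line, grown in the liver of male C3H mice. On day 17 after implantation, 4 mice received 1 intravenous dose of PFSUV-IMQ at 4 mg per kg (labelled IMQNP, replicates 1, 2, 3 and 4) and 4 received saline (labelled Control, replicates 1, 3, 4 and 5). All tumors were taken 3 h later and their bulk RNA was sequenced. The sample labels give the age of the mice as 6 to 8 weeks, and the study's methods give 4 to 6 weeks. Both groups carried the same implanted line, and no group received empty vesicles or free drug among these tumors, so the vesicle and the drug cannot be told apart.

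Type I interferon binds its receptor on almost any nucleated cell and acts through transcription factors that bind an interferon-stimulated response element in the promoters of target genes. The proteins made from those targets block viruses at different steps. Mx proteins are dynamin-like GTPases that trap viral nucleoproteins, IFITM proteins stiffen membranes against fusion of the virus with the cell, and tetherin, the product of Bst2, holds budding particles at the cell surface. Most inbred laboratory mouse strains carry Mx1 alleles that give no working protein, and gene counts do not show which protein the RNA encodes.

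Total counts per tumor were 16883911 to 27687756 in the control group and 17008151 to 18527613 in the PFSUV-IMQ group. Levels are given as CPM, counts scaled to a common library total with edgeR's TMM factors, on which 3 counts in a tumor are 0.105 to 0.21 CPM, a limit that covers counting error only. Log2 CPM of tumors of 1 group correlated at Pearson's r of 0.912 to 0.984 across genes. A gene was called when edgeR's quasi-likelihood test gave a Benjamini-Hochberg adjusted p under 0.05 over 15998 tested genes and the log2 fold change of PFSUV-IMQ against control was beyond 1 in size. Each p-value of this test sets the difference between the groups against the spread between these tumors. The hepatocellular markers Krt8 and Krt18 stood at 686 ± 144 and 886 ± 253 CPM (mean ± SD, n = 4) in the control tumors, whereas Afp, a fetal liver protein made by many hepatocellular carcinomas, was at 5.46 ± 0.683 CPM.

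Of the 10 genes, 7 were higher after PFSUV-IMQ (Mx1, Mx2, Rtp4, Tor3a, Bst2, Ifitm3 and Ly6e), none was lower, and Ifitm1, Ifitm2 and Ifitm6 were not called. Over all tested genes, 2.26% were called higher and 0.2% lower. In bulk tumor RNA, more RNA per cell and more cells that express a gene cannot be told apart. The median log2 fold change of the 10 was 1.58, against -0.03 over all tested genes, and their changes ran from 0.40 for Ifitm1 to 6.26 for Mx1. For 8 of the 10, every PFSUV-IMQ tumor was above every control tumor, which held for 6% of tested genes (in 3.28% every PFSUV-IMQ tumor was below), and the exceptions were Ifitm1 and Ifitm6.

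**Figure D1:**
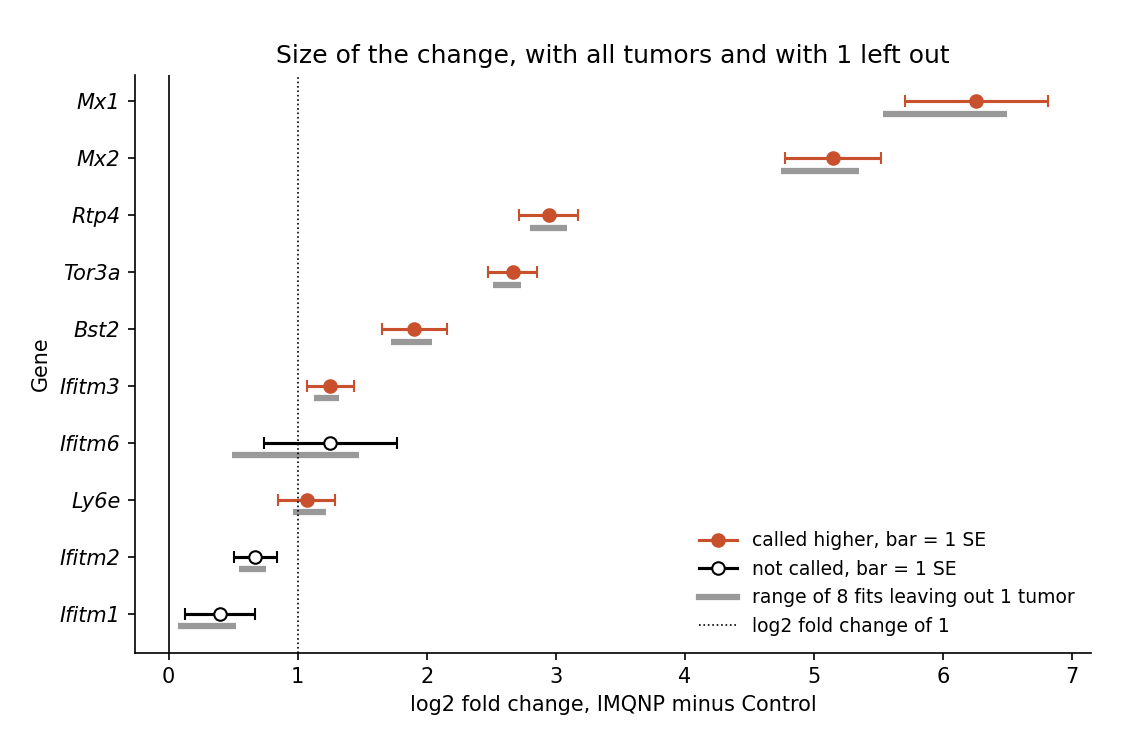
Log2 fold change of each of the 10 genes, PFSUV-IMQ minus control, with bars of 1 SE from edgeR's quasi-likelihood fit on 4 tumors per group a grey bar for the range of the 8 fits that leave out 1 tumor, and filled points for genes called higher. The Mx genes lie farthest to the right, Rtp4 and Tor3a between 2 and 3, and Ly6e close to the dotted line at 1.

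The pair of Mx genes changed most. Mx1 was at 4.70, 5.24, 5.93 and 6.95 CPM in control replicates 1, 3, 4 and 5 and at 202, 946, 276 and 325 CPM in PFSUV-IMQ replicates 1, 2, 3 and 4. The lowest treated tumor stood far above the highest control tumor, and the value of PFSUV-IMQ replicate 2 lay well above those of its group. The group means were 5.70 ± 0.971 CPM in control and 437 ± 343 CPM after PFSUV-IMQ (SD, n = 4). On the log2 scale Mx1 was 6.26 higher (SE 0.55, adjusted p = 5.9e-04), and its increase ranked 4 among all tested genes. Mx1 lies on chr16:97447035-97462907, minus strand, in the GRCm38 build. With PFSUV-IMQ replicate 2 left out, the lowest of its 8 leave-one-out fits, the log2 fold change was 5.54.

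Mx2, whose protein is cytoplasmic in mice whereas that of Mx1 is nuclear, stood at 7.60, 7.98, 8.38 and 9.34 CPM in the control tumors and at 158, 505, 282 and 235 CPM in the PFSUV-IMQ tumors, in the same order of replicates. The groups did not overlap, and replicate 2 was again the highest. The log2 fold change was 5.15 (SE 0.37, adjusted p = 4.8e-04), rank 14 among tested genes. The annotation lists Mx2 (chr16:97535308-97560900, plus strand) as a polymorphic pseudogene, a gene that is intact in some strains and not in others. It lies 72400 bp from Mx1. Of the 50-base words in the longest transcript of Mx1, 4.77% also occur in other genes, among which Mx2 shares the most.

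Mx1 changed more than Mx2. A ratio of counts within a tumor does not depend on library size, so the log2 ratio of Mx1 to Mx2 was compared between groups by an exact two-sided permutation test over all 70 groupings of the tumors. The log2 ratio was -0.55 ± 0.12 in the control tumors and 0.42 ± 0.39 in the PFSUV-IMQ tumors (SD, n = 4). It was higher in all 4 treated tumors than in any control tumor, with a difference of 0.98 (exact permutation p = 0.0286, adjusted p = 0.0476 over the 5 ratios compared), and 0.0286 is the smallest p this design can give. Between treated tumors the ratio still varied, from -0.03 in replicate 3 to 0.91 in replicate 2.

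**Figure D2:**
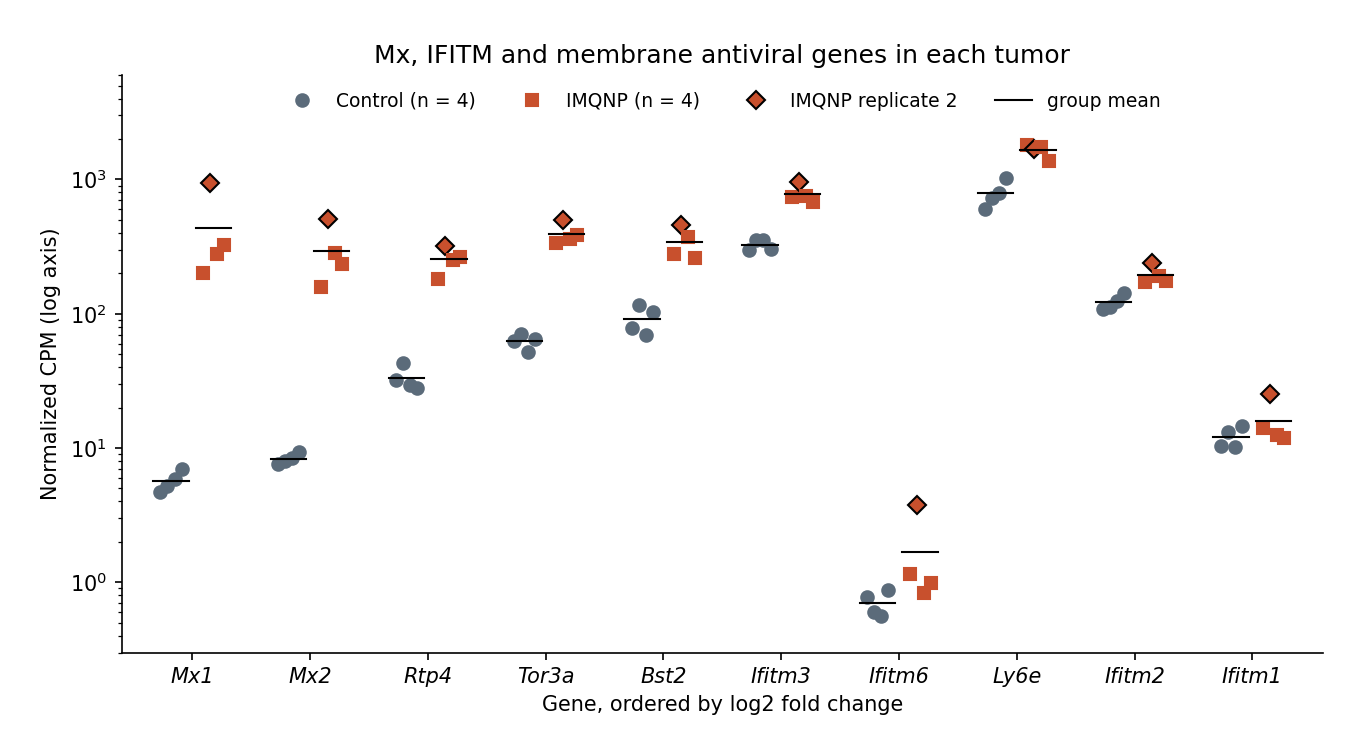
CPM of the 10 genes in each of the 8 tumors on a log axis, with points for tumors, black lines for the group mean (n = 4) and a diamond for PFSUV-IMQ replicate 2. Control and PFSUV-IMQ points are separate for 8 genes and overlap for Ifitm1 and Ifitm6.

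Rtp4, a chaperone that helps membrane receptors leave the Golgi, was at 32.1, 42.9, 29.4 and 27.9 CPM in control replicates 1, 3, 4 and 5 and at 182, 319, 253 and 264 CPM in PFSUV-IMQ replicates 1 to 4. All treated tumors were several times above the controls. The log2 fold change was 2.94 (SE 0.23, adjusted p = 5.0e-04), rank 98 among tested genes. Rtp4 (chr16:23520291-23614222, plus strand) shares 13.9% of its exon bases with Gm45338, a processed transcript on the same strand that stood at 0.441 to 3.995 CPM, so a small share of its reads is uncertain. The only other receptor transporter gene tested, Rtp3, was not called (log2 fold change 1.04, SE 0.72, adjusted p = 0.642).

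Tor3a encodes an ATPase of the endoplasmic reticulum, of the torsin family. It stood at 62.6, 70.2, 51.8 and 64.5 CPM in the control tumors and at 339, 499, 361 and 383 CPM in the PFSUV-IMQ tumors, in the order given for Rtp4. The spread was small in both groups, and the groups were far apart. Its log2 fold change was 2.67 (SE 0.19, adjusted p = 4.8e-04), rank 126. Tor3a lies on chr1:156653617-156674356, minus strand. Of its 6 relatives and cofactors, Tor1aip1 and Tor1aip2, inner nuclear membrane and endoplasmic reticulum proteins that switch on the torsin ATPase, were higher by 1.33 (SE 0.24, adjusted p = 0.0172) and 1.46 (SE 0.22, adjusted p = 0.00884) on the log2 scale. Tor1aip2 rose from 135 to 203 CPM over the control tumors to 362 to 594 CPM over the PFSUV-IMQ tumors. The other torsins, Tor1a, Tor1b, Tor2a and Tor4a, were not called, with log2 fold changes of -0.26 to 0.08.

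Bst2, which encodes tetherin and in mice is also used as a surface marker of plasmacytoid dendritic cells, was at 77.9, 116, 69.1 and 102 CPM in the control tumors and at 280, 455, 372 and 261 CPM in the PFSUV-IMQ tumors. The lowest treated tumor, replicate 4, was above the highest control tumor, replicate 3. Group means were 91.3 ± 21.6 CPM in control and 342 ± 89.5 CPM after PFSUV-IMQ, and on the log2 scale Bst2 was 1.90 higher (SE 0.25, adjusted p = 0.00381). The 7 other marker genes of that dendritic cell, of which 5 were tested and none was called, summed to 124 to 199 CPM in the control and 170 to 272 CPM in the PFSUV-IMQ tumors, groups that overlapped, and most of the sum was Tcf4. Klk1, a marker with too few counts to be tested, was the only one with separate groups, at 0.141 to 0.272 CPM in the control and 0.386 to 0.978 CPM in the PFSUV-IMQ tumors. Siglech, a defining gene of that cell, was at 3.67 ± 1.04 CPM in the control and 1.71 ± 0.978 CPM in the PFSUV-IMQ tumors and was not called (adjusted p = 0.271). The part of that cell in the level of Bst2 was not tested.

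Ly6e encodes a lipid-anchored surface protein that limits fusion of coronaviruses with the cell. It was at 601, 729, 799 and 1018 CPM in control replicates 1, 3, 4 and 5 and at 1821, 1679, 1731 and 1377 CPM in PFSUV-IMQ replicates 1 to 4. The groups did not overlap, and Ly6e was the only one of the 10 genes that was not highest in PFSUV-IMQ replicate 2. The log2 fold change was 1.07 (SE 0.22, adjusted p = 0.037), just inside the rule for a call. That call was kept in only 1 of 8 fits that left out 1 tumor (without control replicate 5), where log2 fold changes ran from 0.96 to 1.22 and adjusted p from 0.0347 to 0.135, and the call was also lost with upper-quartile normalization (log2 fold change 0.995, adjusted p = 0.0654). The log2 ratio of Bst2 to Ly6e was -3.11 ± 0.39 in the control and -2.30 ± 0.34 in the PFSUV-IMQ tumors, groups that overlapped (difference 0.81, exact permutation p = 0.0571, adjusted p = 0.0714).

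The 4 Ifitm genes lie within 63088 bp on chromosome 7 (chr7:140954837-141017924) and did not change alike. Ifitm3, the member best known for blocking influenza virus in endosomes, was at 296, 353, 357 and 304 CPM in the control tumors and at 740, 953, 755 and 677 CPM in the PFSUV-IMQ tumors. Every treated tumor was well above every control tumor. The log2 fold change was 1.25 (SE 0.18, adjusted p = 0.00655), and the call held in all 8 fits that left out 1 tumor.

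Ifitm2, a close relative that sits mainly in endosomes, was at 108, 112, 124 and 142 CPM in the control tumors and at 171, 237, 190 and 176 CPM in the PFSUV-IMQ tumors. The groups were separate, but the gene was not called, with a log2 fold change of 0.67 (SE 0.17, adjusted p = 0.0804). Its level is uncertain, because 40.9% of its exon bases overlap Gm45717 on the same strand, a gene listed at 0 counts in all 8 tumors. Of the 50-base words in its longest transcript, 48.5% occur in other genes, among which Gm45717 shares the most.

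Ifitm1, whose protein is found mainly at the cell surface, was at 10.3, 13.2, 10.1 and 14.6 CPM in the control tumors and at 14.1, 25.1, 12.5 and 11.96 CPM in the PFSUV-IMQ tumors. The groups overlapped, and replicate 2 was the highest by a wide margin. Its log2 fold change of 0.40 (SE 0.27, adjusted p = 0.63) became 0.08 without PFSUV-IMQ replicate 2. Ifitm6 had few counts, at 0.783, 0.597, 0.558 and 0.869 CPM in the control tumors and at 1.16, 3.77, 0.837 and 0.992 CPM in the PFSUV-IMQ tumors, or 13 to 54 counts per tumor. These groups also overlapped, and the log2 fold change of 1.25 (SE 0.51, adjusted p = 0.332) fell to 0.49 without replicate 2. With all tumors Ifitm6 thus had the same estimate as Ifitm3 with a larger error. Without replicate 2 the estimates differed, since that of Ifitm3 was then 1.13.

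Relative to Ifitm3 in the same tumors, Ifitm1 and Ifitm2 were lower after PFSUV-IMQ. The log2 ratio of Ifitm1 to Ifitm3 was -4.77 ± 0.31 in the control and -5.67 ± 0.30 in the PFSUV-IMQ tumors (SD, n = 4), a difference of -0.90 (exact permutation p = 0.0286, adjusted p = 0.0476). The log2 ratio of Ifitm2 to Ifitm3 was -1.43 ± 0.24 in the control and -2.01 ± 0.07 in the PFSUV-IMQ tumors, a difference of -0.58 (exact permutation p = 0.0286, adjusted p = 0.0476). Both ratios were lower in every treated tumor than in any control tumor. The log2 ratio of Ifitm6 to Ifitm3 was -8.84 ± 0.44 in the control and -9.10 ± 0.78 in the PFSUV-IMQ tumors, a difference of -0.26 with overlapping groups (exact permutation p = 0.543).

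**Figure D3:**
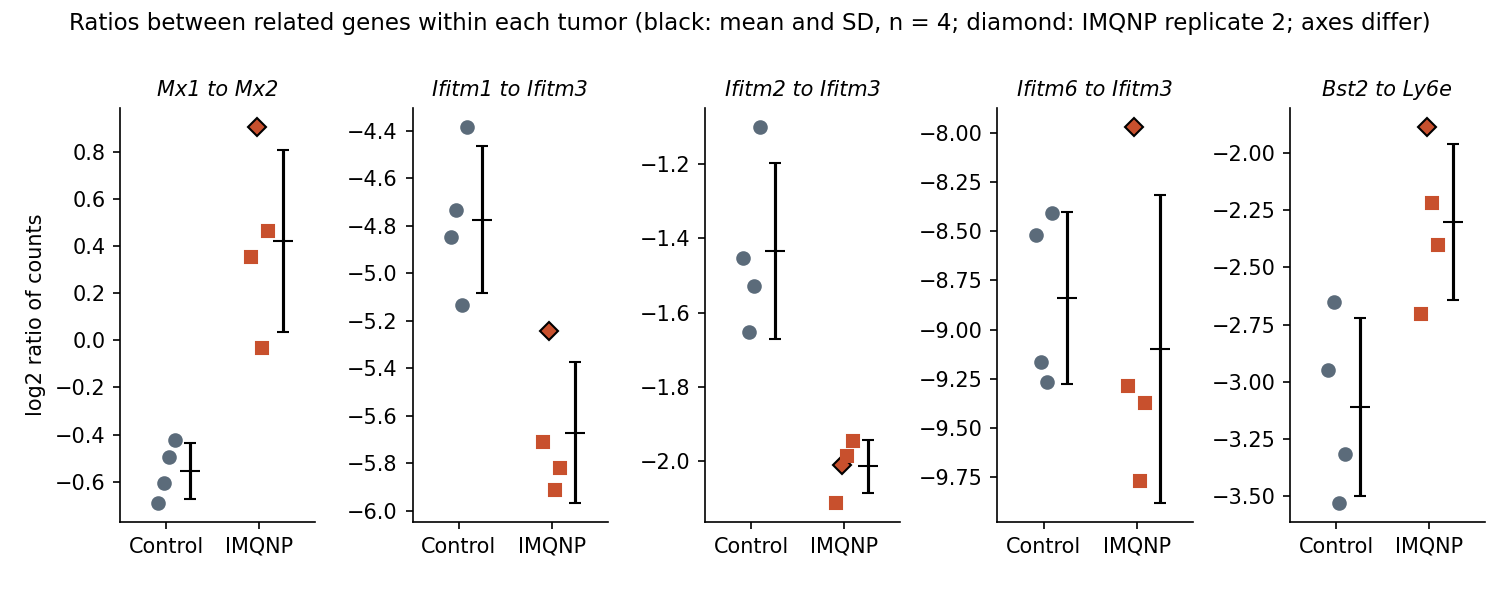
Log2 ratio of counts within each tumor for 5 pairs of genes, each panel on its own axis, with points for tumors, black marks for the mean and SD (n = 4) and a diamond for PFSUV-IMQ replicate 2. Mx1 to Mx2 is higher, and Ifitm1 to Ifitm3 and Ifitm2 to Ifitm3 are lower, in all treated tumors, and the groups overlap in the other panels.

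The sequences before the start sites of the Ifitm genes and Bst2 were examined because these genes changed by different amounts and promoters were given for them (RefSeq, GRCm38.p6, 5 of the 10 genes). Each window held 250 bases before and 50 after the start site, and both strands were searched for the core of the interferon-stimulated response element, GAAA and GAAA set 2 bases apart, which is present in 3.43% of 32817 mouse windows of that length. It occurred in the windows of Ifitm3, Bst2 and Ifitm2 and not in those of Ifitm1 and Ifitm6. For these 2 genes the window lies at a start site 855 bp and 1032 bp inside the annotated gene, whereas it is 26 bp inside for Ifitm2 and Ifitm3 and just outside the gene for Bst2, so other starts of Ifitm1 and Ifitm6 were not searched. The stretches from 150 bases before to 30 bases after the start follow, 5′ to 3′ on the strand of the gene, with the matches in capitals. They are from chr7:141010715-141010894, minus strand, chr7:140955932-140956111, minus strand, chr7:140967926-140968105, plus strand, and chr8:71537443-71537622, minus strand.
Ifitm3: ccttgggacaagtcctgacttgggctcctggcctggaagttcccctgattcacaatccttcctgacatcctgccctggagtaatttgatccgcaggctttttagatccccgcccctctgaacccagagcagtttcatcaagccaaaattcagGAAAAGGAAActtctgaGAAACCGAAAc
Ifitm2: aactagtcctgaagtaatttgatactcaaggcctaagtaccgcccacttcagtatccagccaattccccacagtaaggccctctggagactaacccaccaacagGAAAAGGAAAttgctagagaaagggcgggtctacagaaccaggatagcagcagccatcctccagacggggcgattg
Ifitm1: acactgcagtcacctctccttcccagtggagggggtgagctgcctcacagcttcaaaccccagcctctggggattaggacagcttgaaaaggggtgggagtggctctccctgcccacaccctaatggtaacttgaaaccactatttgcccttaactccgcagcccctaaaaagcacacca
Bst2: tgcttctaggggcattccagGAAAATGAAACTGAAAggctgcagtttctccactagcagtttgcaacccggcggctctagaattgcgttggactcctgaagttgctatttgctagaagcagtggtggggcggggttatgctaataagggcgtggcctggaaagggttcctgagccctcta

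Ifitm3 had a pair of matches just downstream of the start, from base 3 to 12 and from base 20 to 29, counting the start as base 1. Bst2 had a pair that overlap each other, the nearer one ending 114 bases before the start, and Ifitm2 had 1 match that ended 36 bases before it. A second motif, TTC and GAA set 3 bases apart, was found in the windows of Ifitm3, Bst2 and Ifitm6 and in 8.29% of all windows. In Ifitm3 and in Bst2 it overlapped a match of the first motif. The letters TATAAA were found for Ifitm2 and Ifitm6 (13.6% of windows) and CCAAT for the same genes (37.4% of windows). A match of letters is a description and does not show that a factor was bound.

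Levels of different genes were set side by side only per length, as RPKM, which is CPM divided by the exon length in kilobases. In the control tumors Ifitm3 was the highest at 483 ± 47.1 RPKM (mean ± SD, n = 4), followed by Ly6e at 208 ± 46.1, Ifitm2 at 185 ± 22.9 and Bst2 at 101 ± 23.9 RPKM. Tor3a, Rtp4 and Ifitm1 formed a middle group at 16.0 ± 1.97, 15.5 ± 3.17 and 11.02 ± 2.01 RPKM. Mx2 at 2.30 ± 0.207, Mx1 at 1.51 ± 0.257 and Ifitm6 at 0.776 ± 0.164 RPKM were the lowest. Neighbours in this order overlapped for Ly6e and Ifitm2, for Tor3a and Rtp4, and for Rtp4 and Ifitm1, and the ranges of all other neighbours were separate.

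After PFSUV-IMQ, Ifitm3 remained the highest at 1152 ± 176 RPKM and Ifitm6 the lowest at 1.87 ± 1.54 RPKM. Ly6e, Bst2 and Ifitm2 came next at 437 ± 50.8, 378 ± 99.1 and 296 ± 45.7 RPKM, with overlapping ranges between neighbours. Rtp4 at 119 ± 26.5, Mx1 at 115 ± 90.6, Tor3a at 102 ± 18.3 and Mx2 at 81.7 ± 41.2 RPKM also overlapped from one to the next. Mx1 and Mx2 had passed Ifitm1, which stood at 14.6 ± 5.68 RPKM and was separate from Mx2. Mx1 was below the level of most tested genes in the control tumors, where 27.7% of them were lower, and above most in the treated tumors, where 97.2% were lower.

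**Figure D4:**
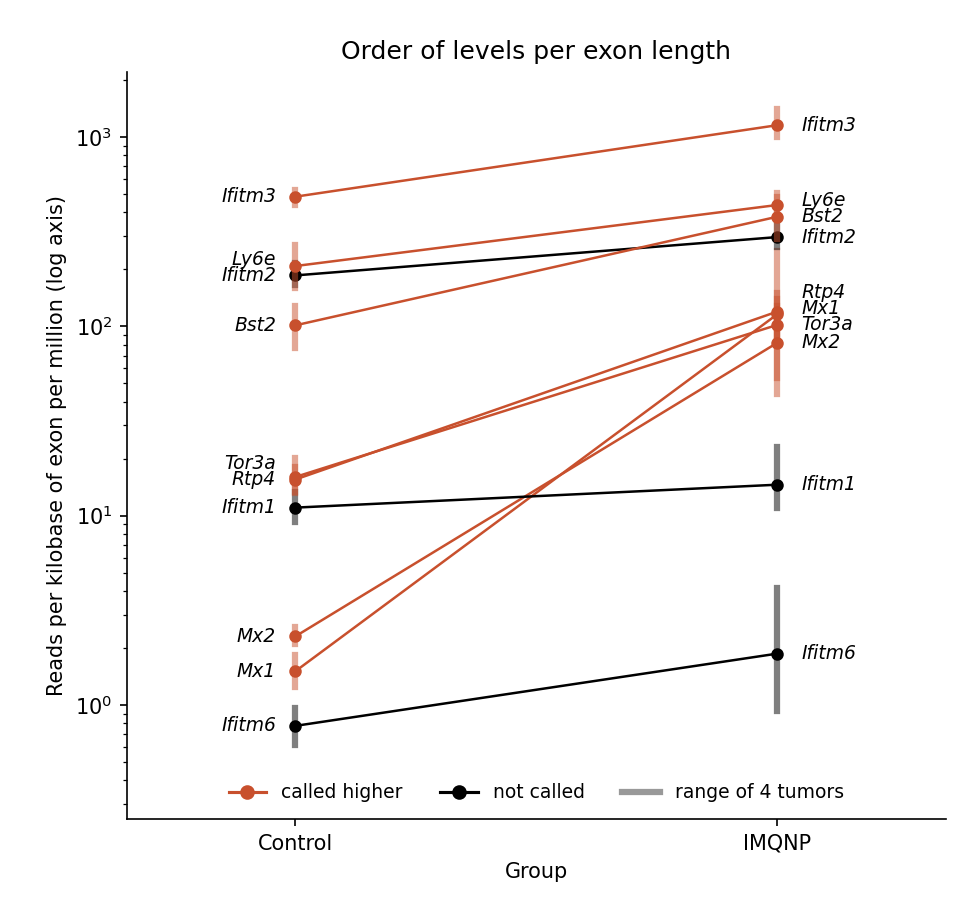
Mean RPKM of the 10 genes in the control and PFSUV-IMQ tumors on a log axis, with bars from the lowest to the highest of 4 tumors. The lines of Mx1 and Mx2 cross that of Ifitm1, and Ifitm3 is highest and Ifitm6 lowest in both groups.

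PFSUV-IMQ replicate 2 was the highest tumor of its group for 9 of the 10 genes, which held for 34.8% of all tested genes and for 88.4% of the genes called higher. Of 12 marker lists, that tumor also had the largest sum of all tumors for 7. These were the markers of hepatocytes (38950 CPM, against 7199 CPM in the lowest tumor of its group), neutrophils (163 against 37.4 CPM), monocytes (338 against 123 CPM), plasmacytoid dendritic cells (272 against 170 CPM), T cells (147.5 against 60.1 CPM), NK cells (27.9 against 7.305 CPM) and B cells (30.3 against 4.29 CPM). Most of the monocyte sum in that tumor was Plac8 (234 CPM), and most of the plasmacytoid dendritic cell sum was Tcf4 (255.5 CPM). Of the other monocyte markers, Itgam (66.9 CPM) was also the highest of all tumors there, whereas Cx3cr1 (4.89 CPM) was the lowest. Ccr2 of monocytes (29.8 CPM) and Siglech of plasmacytoid dendritic cells (3.14 CPM) lay within the range of the control tumors. Most of the NK cell sum in that tumor was Eomes (18.4 CPM). Klre1 of NK cells (8.52 CPM) was also the highest of all tumors there, whereas Ncr1 of NK cells (0.77 CPM) lay within the range of the control tumors. The sum of hepatocellular tumor markers in that tumor, 3952 CPM, was the lowest of its group, in which the highest was 8831 CPM. That tumor had the largest mitochondrial share of counts of all tumors, at 6.65%. The part of these in its levels was not tested. All 7 calls but that of Ly6e held without it, and the log2 fold changes of Mx1, Mx2, Rtp4, Tor3a, Bst2 and Ifitm3 stayed above 1 in each of the 8 fits that left out 1 tumor.

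Across the 8 tumors, log2 CPM of Mx1, Mx2, Rtp4, Tor3a, Ifitm3 and Bst2 followed each other closely, with Pearson's r of 0.965 to 0.998 for any pair, a description that the difference between groups by itself makes large. Ly6e was at 0.883 to 0.920 with these, and Ifitm2, which was not called, at 0.896 to 0.953. Ifitm1 was at 0.514 to 0.649 with the same genes and at 0.907 with Ifitm6. Among 11490 genes with a mean of at least 5 CPM, other members left out, Dhx58, an RNA helicase of the RIG-I family, was the most like Mx1 (r = 0.998) and Ifitm3 (r = 0.992). Those most like Mx2, Tor3a and Rtp4 were Oas1a (r = 0.997), Ifit3b (r = 0.999) and Stat2 (r = 0.998), and for Bst2 and Ly6e they were H2-Q4 (r = 0.990) and Rhbdf2 (r = 0.966). Ifitm2 was closest to Nlgn2 (r = 0.989), Ifitm1 to Basp1 (r = 0.973) and Ifitm6 to Rfc3 (r = 0.951).

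Of 24 tested neighbours of the 10 on the chromosomes, the nearest 2 on each side, 1 was called higher, beside 2.26% of all tested genes, and their log2 fold changes had a median of 0.15 and ran from -0.44 to 1.87. The called neighbour was Ly6a, a surface antigen gene and the second nearest to Ly6e on its side, at 34972 bp, which went from 84.5 to 171 CPM over the control tumors to 271 to 851 CPM over the PFSUV-IMQ tumors (log2 fold change 1.87, SE 0.41, adjusted p = 0.0444). Bace2 and Tmprss2, which flank the Mx pair, had log2 fold changes of -0.05 (SE 0.32) and 0.45 (SE 0.57) and were not called.

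Relatives of the 10 by protein family were read beside the 2.26% of all tested genes called higher. None of 7 other dynamin superfamily genes was called, those with the smallest p being Dnm3 at a log2 fold change of 0.63 (adjusted p = 0.355) and Mfn1 at -0.11 (adjusted p = 0.801). None of 3 tested Ifitm and dispanin genes was called either, with Ifitm10 at -0.38 and Tmem91 at 0.16. Of 9 tested Ly6 family genes Ly6a alone was called, and Ly6c2, a marker of inflammatory monocytes, had a log2 fold change of 1.88 that missed the threshold (SE 0.44, adjusted p = 0.0634). The 9 had a median log2 fold change of 1.19, with 7 positive and 2 negative. Summed over the 17 Ly6 family genes found, CPM was 137 to 241 in the control and 342 to 1060 in the PFSUV-IMQ tumors. These sums did not overlap, and most of each was Ly6a. The 5 genes known to modify or bind IFITM proteins had none called, with Nedd4, a ubiquitin ligase for Ifitm3, at -0.44 (adjusted p = 0.648) and Vapa at 0.15 (adjusted p = 0.816).

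Of 7 other genes that limit viruses at membranes, Ch25h, which makes the fusion-blocking oxysterol 25-hydroxycholesterol, was called higher, with a log2 fold change of 2.19 (SE 0.43, adjusted p = 0.0297). It rose from 6.41 to 11.6 CPM over the control tumors to 23.6 to 81.6 CPM over the PFSUV-IMQ tumors. March8, which removes viral envelope proteins from the surface, was at -0.32 (adjusted p = 0.596) and was not called. Of 15 genes for interferon receptors and their signal transduction, 5 were called higher and none lower. These were the transcription factors Stat2, Irf9 and Irf7, with log2 fold changes of 2.34, 1.26 and 2.94, and the feedback inhibitors Usp18 and Socs1, with 4.82 and 2.74. The receptor chains were not among them. Of 21 interferon genes only Ifng passed the filter on low counts, at a log2 fold change of 0.62 (SE 0.42, adjusted p = 0.628), 8 were listed at 0 in all tumors, and Ifnb1 stood at 0 to 0.141 CPM in the control and 0.165 to 0.489 CPM in the PFSUV-IMQ tumors.

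**Figure D5:**
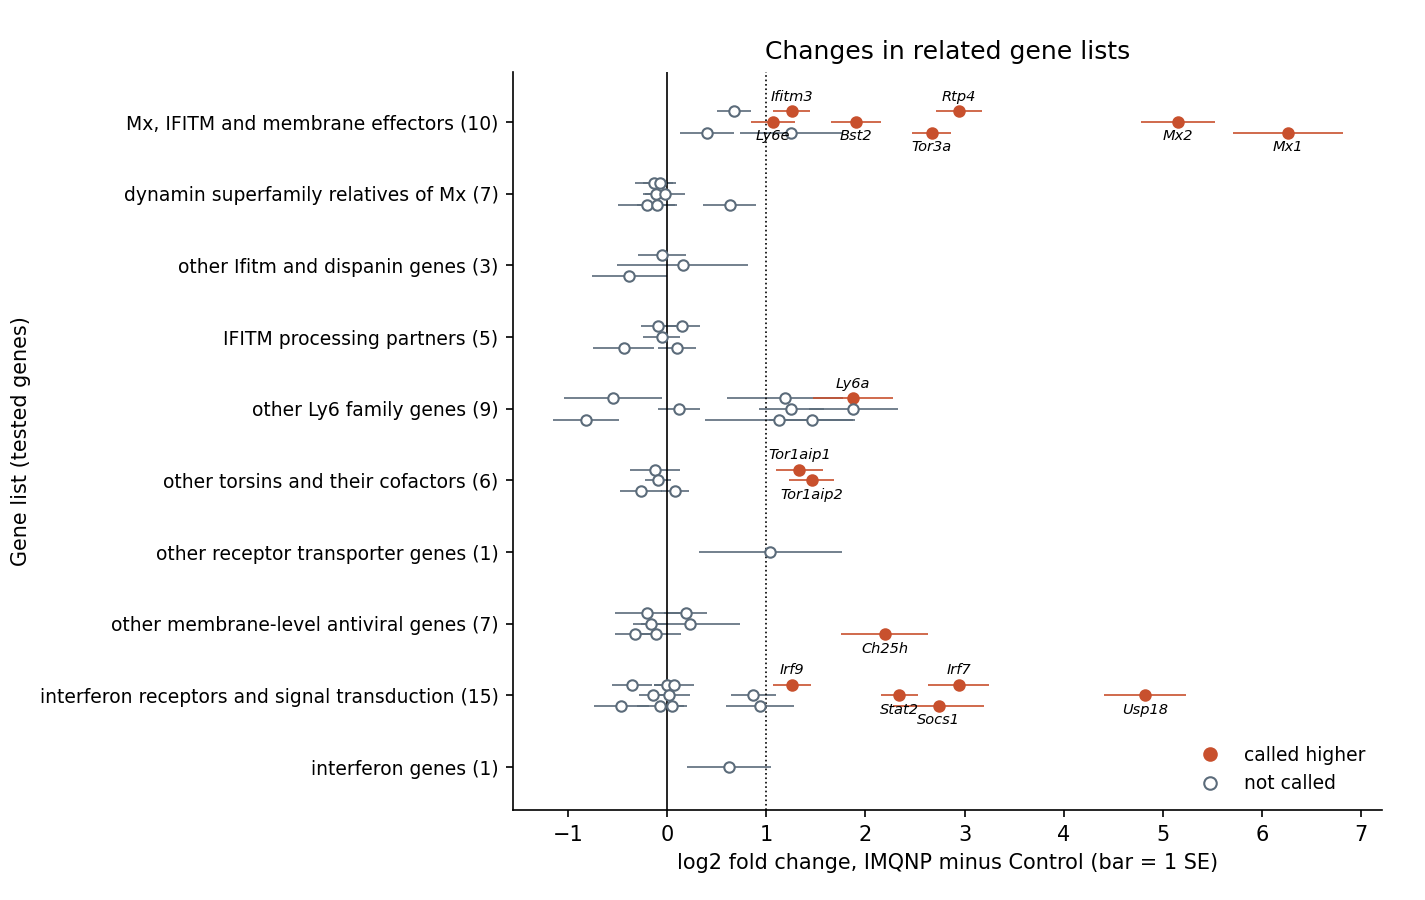
Log2 fold change, PFSUV-IMQ minus control, of each tested gene in the set of 10 and in related gene lists, with bars of 1 SE, filled points for genes called higher and open points for genes not called. Most related genes outside the Ly6 family lie near 0, whereas 7 of 9 other Ly6 family genes lie above 0. The called ones include Ly6a, Tor1aip1, Tor1aip2, Ch25h and 5 genes of interferon signal transduction.

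Markers of cell types that a liver tumor could hold were read beside these genes. The summed CPM of each of the 12 marker lists overlapped between the groups. Single markers called were Vsig4 of Kupffer cells (log2 fold change -1.62, adjusted p = 0.0453) and Cx3cr1 of monocytes and macrophages (-2.81, adjusted p = 0.00243), both lower after PFSUV-IMQ. No marker of hepatocytes, tumor cells, neutrophils, lymphocytes, endothelium, fibroblasts or red cells was called. Without a call, Hbb-bs and Hbb-bt of red cells (log2 fold changes -1.24 and -1.44) were lower in every treated tumor than in any control tumor. Retnlg of neutrophils (2.48) and Plac8 of monocytes (1.17) were higher in every treated tumor. Such separation held for 3.28% (lower) and 6% (higher) of tested genes. Of the 5 monocyte markers 2 were higher and 3 lower, with a median log2 fold change of -0.81. Ccr2 of monocytes was at -1.23 (adjusted p = 0.089) and Clec4f of Kupffer cells at -0.96 (adjusted p = 0.122), not called and with overlapping groups. Of the 8 macrophage and Kupffer cell markers, 7 were lower and 1 higher. Neutrophil markers summed to 18.7 to 79.3 CPM in the control and 37.4 to 163 CPM in the PFSUV-IMQ tumors, and hepatocyte markers to 4614 to 35340 and 7199 to 38950 CPM. Klra8 of NK cells was the only marker listed at 0 in all tumors. The part of cell composition in the changes of the 10 genes was not tested.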

How the data were processed

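Libraries were made from tumor RNA with the KAPA mRNA HyperPrep kit. The authors deposited whole-number counts of reads per gene, not normalized, which were the input of every test. Their methods name TopHat and HTSeq, whereas the submitters' processing notes name Trimmomatic 0.38, HISAT2 2.1.0 and featureCounts 2.0.0, and neither says how reads that overlap several genes, or the strand, were treated. The other deposited table gives normalized signal, for which the authors divided the counts by a DESeq2 size factor, and only its gene symbols were used here. A single factor per tumor explained its values, with a largest relative departure of 5.4e-10. The counted genes are those of a reference genome made from another strain than C3H, and the effect of that on the counts was not tested. Coordinates and exon lengths are those of the GENCODE annotation of GRCm38, in which all 55536 counted identifiers were found, and promoter sequences are from RefSeq (GRCm38.p6).

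Counts were tested in R 4.3.3 with edgeR 4.0.16 (TMM, its default filter on low counts, quasi-likelihood test, Benjamini-Hochberg adjustment over 15998 genes, no covariate, all 8 tumors). DESeq2 1.42.0 and limma 3.58.1 gave alternatives, along with other normalizations and filters, a minimum fold change, a replicate block and each tumor left out. Ratios of counts were log2 values with 0.5 added to each count, compared with SciPy 1.17.1 over 5 ratios. Correlations used log2 CPM with a prior count of 2. The 10 genes and the related lists were chosen with earlier results of these data known, so counts of calls are read beside the share of all genes called and no test was run on the set. All 10 were named, together with the genes of each related list that were called or, where none was, those with the smallest p, and other genes were named after their values were seen. Counts with 200 changed genes among 15998 were also simulated, and read at an adjusted p under 0.05 with no limit on the fold change. They were drawn independently gene by gene, with the spread and library sizes that edgeR estimated from these tumors. Changed genes were taken only from those above a minimum level. The setting is close to edgeR's own model, so the rates do not rank the tools on real counts. In the simulated counts edgeR recovered 66%, and 87.5% of those raised by 2 on the log2 scale, with 4.35% of the genes it picked false. On the same counts limma-voom recovered 65% with 3.70% false, and DESeq2 79% with 20.20% false. The labels give no batch, and replicate numbers did not pair them, since they are of different animals. One gene of the interferon signal transduction list is not reported here.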

Additional observations from a re-analysis of the deposited data

Results flagged for a closer look

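PFSUV-IMQ replicate 2 lay far from the other 3 treated tumors for 3 genes. Mx1 was at 945.6 CPM in that tumor, against 201.9 to 324.5 CPM in the others. Ifitm1 was at 25.15 CPM against 11.96 to 14.13 CPM, and Ifitm6 at 3.773 CPM against 0.8365 to 1.159 CPM. In each case the gap to the nearest tumor, divided by the range of the group, was above Dixon's 95% critical value for 4 samples. The values of genes were taken as CPM, and log CPM was not examined this way. Of 30 groups of values examined, 3 were past that value, and chance alone puts about 1 in 20 independent groups past it. These 3 share the same outlying tumor and are not independent. The call of Mx1 held without the tumor, and Ifitm1 and Ifitm6 were called neither with nor without it.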

How the results depend on the processing

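The direction of all 10 genes was the same under every alternative tried. Under the 8 other settings of the fit, Mx1, Mx2, Rtp4 and Tor3a were called each time and Ifitm1, Ifitm2 and Ifitm6 never. With glmTreat, which tests for a log2 fold change beyond 1, 4 of the 10 were called, and Ifitm3, Bst2 (adjusted p = 0.0585) and Ly6e were not. That test called 119 genes higher and 1 lower over all tested genes, against 362 and 32. DESeq2's Wald test called 619 higher and 131 lower, limma-voom 21 lower, and the fit with no filter on low counts 63 lower. The cause of these differences was not tested. With 1 tumor left out, 6 to 7 of the 10 genes were called, and 197 to 375 genes were higher and 8 to 38 lower over all tested genes.

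Replicate numbers 1, 3 and 4 occur in both groups, and tumors with the same number did not deviate together (correlations of 0.294, -0.268 and -0.316). In a fit with a replicate block, PFSUV-IMQ replicate 2 and control replicate 5 have no partner and do not inform the comparison of groups. With that block, 7 of the 10 genes were called higher, and 416 genes were higher and 267 lower over all tested genes. Of the 394 genes called in the main fit, 323 were also called with the block.

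With 1 tumor left out, the difference in log2 ratio ran from 0.82 to 1.13 for Mx1 to Mx2, from -1.04 to -0.77 for Ifitm1 to Ifitm3, and from -0.65 to -0.47 for Ifitm2 to Ifitm3. None of these could pass the threshold, because an exact test of 3 tumors against 4 cannot reach it. Depth limits the statements on Ifitm6, which had 13 to 54 counts per tumor.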
